A study of Mus musculus with 12 samples.

Results

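The 10 genes described here act in cytokine and mediator signalling and were measured in sorted mouse dorsal root ganglion neurons: the receptor chains Il31ra, Osmr, Il6st, Lifr, Il6ra, Il4ra and Il13ra1, the kinase Jak1, and the G protein-coupled receptors Cysltr2 and Hrh1. They were chosen by gene symbol, and 10 of the 41388 genes in the deposited tables carried these symbols, 1 row each. None was chosen for its measured values, but the choice was made with earlier results of these data known.

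Il6st encodes gp130, the shared signalling chain of the interleukin-6 family, which pairs with Lifr for leukemia inhibitory factor and with Il6ra for interleukin-6. Il31ra and Osmr form the receptor of interleukin-31, a cytokine that causes itch, and Osmr with gp130 forms the receptor of oncostatin M. Il4ra and Il13ra1 form a receptor of the type 2 cytokines interleukin-4 and interleukin-13. These receptors signal through JAK kinases, among them Jak1, to STAT transcription factors. Cysltr2 binds cysteinyl leukotrienes and Hrh1 binds histamine. In mouse ganglia, Il31ra, Osmr and Cysltr2 are known as markers of small itch neurons that make the peptides Nppb and Sst.

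RNA was measured by RNA-seq in 12 libraries of C57BL/6 mice aged 3 months, all labelled with a floxed Ret allele carrying an EGFP reporter and with Cre recombinase in the Scn10a gene, which encodes the sodium channel NaV1.8. The 4 groups were female L6S1 (libraries A, B and C), male L6S1 (A, B and C), female L345 (B, C and D) and male L345 (A, B and C). L6S1 stands for ganglia of levels L6 and S1, and L345 for ganglia of levels L3, L4 and L5. Each library came from 12 to 32 pooled ganglia of 2 to 8 mice, sorted by fluorescence.

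The reporter limits the cells to those in which Cre had acted and the Ret locus was active, and every group carried both alleles, so no library is labelled as lacking either. The sources used here do not say whether the mice had 1 or both copies of the floxed allele, nor whether L6S1 and L345 pools shared mice. The genotype field of 4 libraries (female L6S1 B, female L6S1 C, male L6S1 C and female L345 D) is incomplete and their titles follow another format. These 4 are called the second record format below, and the other 8 the first.

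Total counts per library ranged from 16176436 to 26694404. Sensory neuron markers, 9 genes that include Tubb3, Prph and Scn10a, summed to 11311 to 14907 CPM (the count relative to its library's TMM-scaled total) in L6S1 libraries and 10370 to 12587 CPM in L345 libraries, and all 9 were detected. Tubb3 made the largest part of that sum, at 5965 CPM on average in L6S1 and 4296 CPM in L345. Other markers had the opposite sign: Rbfox3 fell in L6S1, to 79.6 CPM against 135 CPM in L345 (edgeR adjusted p = 0.0368), and Scn10a was at 429 CPM in L6S1 and 573 CPM in L345 (edgeR adjusted p = 0.101). Other cell types were also present: 11 satellite glia and Schwann cell genes summed to 3908 to 4765 CPM in L6S1 libraries and 3708 to 4377 CPM in L345 libraries. Fibroblast genes (7 listed) summed to 148 to 525 CPM in L6S1 libraries and 86.1 to 109 CPM in L345 libraries, with no overlap. Macrophage genes (9 listed) reached 63.7 CPM in 1 L6S1 library, female C, and stayed at 6.30 to 9.24 CPM for the other 5, against 3.80 to 5.62 CPM in L345 libraries. Among the 5 mast cell genes, 2 were at 0 in every library. In these bulk samples, fewer cells of a type and less RNA per cell cannot be told apart.

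The promoters of the 3 itch neuron receptors are shown because Cysltr2 varied with each of the others across libraries, as described further on. The lines give the 250 bases before the RefSeq start of Il31ra (chr13:112580663-112580912, minus strand), Osmr (chr15:6874314-6874563, minus strand) and Cysltr2 (chr14:73049115-73049364, minus strand), build GRCm38.p6, read 5′ to 3′, with capitals marking a match to the STAT motif TTCNNNGAA.
Il31ra: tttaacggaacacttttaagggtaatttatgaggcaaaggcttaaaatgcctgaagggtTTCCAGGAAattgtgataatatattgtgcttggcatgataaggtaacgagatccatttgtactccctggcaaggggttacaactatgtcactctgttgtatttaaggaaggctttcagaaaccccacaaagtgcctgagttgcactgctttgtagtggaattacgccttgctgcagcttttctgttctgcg
Osmr: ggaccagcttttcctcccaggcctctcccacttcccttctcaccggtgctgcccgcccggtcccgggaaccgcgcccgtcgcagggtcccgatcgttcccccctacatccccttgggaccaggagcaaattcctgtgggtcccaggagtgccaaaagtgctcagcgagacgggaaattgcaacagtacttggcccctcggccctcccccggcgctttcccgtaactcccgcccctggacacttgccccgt
Cysltr2: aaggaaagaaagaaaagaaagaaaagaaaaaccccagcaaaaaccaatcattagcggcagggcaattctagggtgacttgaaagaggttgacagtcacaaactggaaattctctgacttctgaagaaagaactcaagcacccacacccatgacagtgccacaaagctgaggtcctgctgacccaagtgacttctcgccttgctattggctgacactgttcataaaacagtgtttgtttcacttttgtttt
The Il31ra window held the only STAT motif among the 10 members, at base -191 from the start, and the share of all 27025 genes with RefSeq windows that held it was 7.18%. The RUNX motif TGTGGT or its reverse complement ACCACA was in the windows of 0 of the 10 members and of 14.2% of all genes. Both motifs were searched on both strands, and the STAT motif reads the same on both. The members were searched in all of their 14 windows, while the shares of all genes rest on the first window of each gene. The match is a description of letters in this window. By the deposited coordinates the Osmr window lies inside the counted gene, which runs from 6813577 to 6874969. The Il31ra and Cysltr2 windows lie directly before their counted genes, which end at 112580662 and 73049114.

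The members lie on several chromosomes, and 2 pairs are neighbours. Il6st (chromosome 13, 112464070 to 112510086, plus strand) and Il31ra (chromosome 13, 112522810 to 112580662, minus strand) point toward each other with 12723 bases between them, and Osmr (chromosome 15, 6813577 to 6874969, minus strand) and Lifr (chromosome 15, 7129559 to 7197489, plus strand) lie 254589 bases apart. The coordinates are those of the deposited tables on GRCm38.

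On the per-length scale (RPKM, the count relative to its library's unscaled total, per kilobase of the length in the tables), Lifr had the highest level of the 10 members and Il6ra the lowest. Lifr averaged 134 ± 30.5 RPKM (SD, n = 12) and Jak1 87.6 ± 24.8 RPKM, and Lifr was the higher in 12 of 12 libraries. Il31ra, at 36.2 ± 9.29 RPKM, stood above the shared chain Il6st, at 17.9 ± 4.59 RPKM, in 11 of 12 libraries. Osmr followed at 13.1 ± 3.03 RPKM.

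Osmr and Il4ra, at 11.8 ± 1.72 RPKM, did not differ beyond their spread, since Osmr was the higher in 7 of 12 libraries. Il4ra was above Cysltr2, at 9.76 ± 2.88 RPKM, in 9 of 12 libraries, and these SDs overlapped as well. Il13ra1, at 5.98 ± 1.57 RPKM, lay below Cysltr2 in 11 of 12 libraries and above Hrh1, at 1.58 ± 0.408 RPKM, in all 12. Il6ra had 6 counts in all among 283926000, with 0 counts in 8 libraries and at most 2 in any, which is below the floor of 3 counts per library (0.112 to 0.185 CPM).

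The lengths in the tables are shorter than the exons of GENCODE M21 for 5 members. Il31ra has 3665 bases in the tables and 5673 in that annotation, Cysltr2 1802 and 2872, and Il6ra 3343 and 8642. With the longer lengths Il31ra averaged 23.4 RPKM, Il4ra 10.0 RPKM and Cysltr2 6.12 RPKM, and the order of the 10 means was the same. Cysltr2 (6.12 ± 1.81 RPKM) and Il13ra1 (5.98 ± 1.57 RPKM) then did not differ beyond their spread. The counts of libraries given above hold for the lengths in the tables only.

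**Figure D1:**
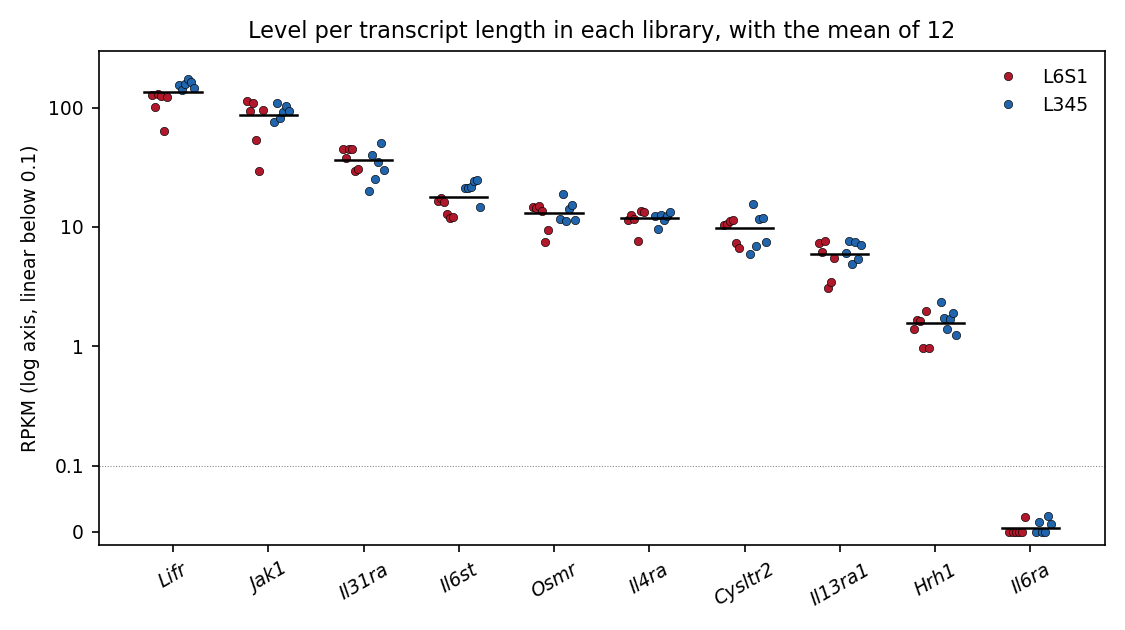
Level per transcript length of the 10 members in each of the 12 libraries (points; red L6S1, blue L345) with the mean of all 12 (line), in RPKM on an axis that is logarithmic above 0.1 and linear below. Lifr (mean 134 RPKM) stands at the top, Hrh1 (1.58 RPKM) is the lowest member above the floor, and Il6ra lies at or near 0 in every library.

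The main comparison asked whether the members differed between L6S1 and L345 ganglia. None of the 9 members tested passed the threshold: edgeR's quasi-likelihood test gave adjusted p-values of 0.0687 to 0.974 over 15281 genes, of which 2.33% passed (356 genes; 1.45% higher and 0.877% lower in L6S1). Il6st and Lifr had the smallest p-values and were lower on average in L6S1. They were the 2 of 9 members with an unadjusted p under 0.05, where 26.6% of all genes had one. DESeq2 called 1 member (Il6st), where it called 9.94% of all genes, and limma-voom called 2 (Il6st and Lifr), where it called 21.4%. These member counts are near the shares of all genes. The median log2 fold change was -0.18 over the 9 members and -0.06 over all genes, and 8 of 9 members had a negative value. Without female L6S1 A, Il6st (adjusted p = 0.0113), Lifr (0.0192) and Jak1 (0.0294) passed, as did 25.7% of all genes. Without female L345 D, Il6st passed (adjusted p = 0.0242), as did 5.63% of all genes.

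Il6st, the shared gp130 chain, had 181, 144 and 138 CPM in the female L6S1 libraries and 199, 181 and 135 CPM in the male L6S1 libraries. It had 263, 270 and 161 CPM in the female L345 libraries and 229, 237 and 241 CPM in the male L345 libraries. Each of the 6 L6S1 libraries was below the L345 mean of its sex, and the groups overlapped only through female L345 D, at 161 CPM.

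The Il6st means were 163 ± 27.3 CPM in L6S1 and 234 ± 38.9 CPM in L345 (SD, n = 6 each), and the log2 fold change was -0.52 ± 0.15 (SE; edgeR adjusted p = 0.0687). Within the first record format, where L6S1 had 3 libraries at 181 to 199 CPM and L345 had 5 at 229 to 270 CPM, the log2 fold change was -0.45 (edgeR adjusted p = 0.0256; 3.12% of all genes passed in that fit). With record format as a term over all 12 libraries it was -0.34 (edgeR adjusted p = 0.126), and over 24 alternatives the adjusted p ranged from 0.000711 to 0.767. Within the second it was at 135 to 144 CPM in the 3 L6S1 libraries and 161 CPM in the 1 L345 library, and no fit was run on these alone.

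Lifr, which pairs with gp130, had 1304, 1312 and 683 CPM in the female L6S1 libraries and 1070, 1365 and 1254 CPM in the male L6S1 libraries. It had 1778, 1683 and 1496 CPM in the female L345 libraries and 1563, 1463 and 1641 CPM in the male L345 libraries. It was the single member of the 9 without overlap between the levels, where 3.24% of all genes tested had none (1.22% with L6S1 lower). The highest L6S1 library was at 1365 CPM and the lowest L345 library at 1463 CPM.

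The Lifr means were 1165 ± 257 CPM in L6S1 and 1604 ± 119 CPM in L345 (SD, n = 6 each), and the log2 fold change was -0.46 ± 0.15 (SE; edgeR adjusted p = 0.0914). The lowest value, 683 CPM, was that of female L6S1 C. That library had the highest macrophage, fibroblast and endothelial marker sums (63.7, 525 and 19.6 CPM). Its T cell and mast cell sums (6.45 and 2.05 CPM) were also the highest. So were its sums for sensory neurons (14907 CPM), for itch neurons with Nppb and Sst (1434 CPM) and for Mrgpra3 itch neurons (275 CPM). The part of these cells in the result was not tested. Without female L6S1 B and C the log2 fold change was -0.35 (adjusted p = 0.184), and with offsets for GC content and transcript length it was -0.26 (adjusted p = 0.512).

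Il31ra, the itch cytokine receptor, was the single member with a positive value. It had 162, 167 and 112 CPM in the female L6S1 libraries and 143, 166 and 112 CPM in the male L6S1 libraries, against 126, 183 and 110 CPM in the female L345 libraries and 71.4, 148 and 92.2 CPM in the male L345 libraries. The levels overlapped, with the highest and the lowest library both in L345. The log2 fold change was 0.25 ± 0.19 (SE; edgeR adjusted p = 0.401), and its 95% interval of -0.16 to 0.66 covers both directions.

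Osmr, the partner chain of Il31ra, had 93.8 to 185 CPM in L6S1 libraries (median 172) and 135 to 228 CPM in L345 libraries (median 154). Its log2 fold change was -0.12 ± 0.19 (edgeR adjusted p = 0.709; 95% interval -0.53 to 0.29). Cysltr2, the leukotriene receptor, had 12.0 to 20.8 CPM in L6S1 libraries (median 19.0) and 10.5 to 28.1 CPM in L345 libraries (median 17.0), and its log2 fold change was -0.02 ± 0.24 (edgeR adjusted p = 0.974; 95% interval -0.53 to 0.50). Both genes overlapped widely between the levels, and each interval also holds changes of more than 0.25 in either direction.

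Jak1, the kinase that serves these receptors, had 811, 391 and 219 CPM in the female L6S1 libraries and 696, 793 and 690 CPM in the male L6S1 libraries, against 648, 736 and 666 CPM in the female L345 libraries and 538, 799 and 591 CPM in the male L345 libraries. Female L6S1 B and C were the 2 lowest of the 12 libraries and the other 10 lay between 538 and 811 CPM. The log2 fold change was -0.18 ± 0.24 (edgeR adjusted p = 0.647), and without those 2 libraries it was 0.21.

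The receptor of interleukin-4 and interleukin-13 showed no difference between the levels that passed the test. Il4ra, the interleukin-4 binding chain, had 39.2 to 71.6 CPM in L6S1 libraries (median 62.5) and 49.1 to 67.7 CPM in L345 libraries (median 62.0), and its log2 fold change was -0.01 ± 0.14 (edgeR adjusted p = 0.968; 95% interval -0.32 to 0.30). Il13ra1, the interleukin-13 binding chain, had 11.6 to 28.7 CPM in L6S1 libraries (median 22.0) and 18.1 to 28.2 CPM in L345 libraries (median 23.9), and its log2 fold change was -0.20 ± 0.20 (edgeR adjusted p = 0.532). Its 2 lowest libraries were female L6S1 B and C, the same libraries that were lowest for Jak1. Hrh1, the histamine receptor, had 4.29 to 9.09 CPM in L6S1 libraries (median 6.69) and 5.53 to 10.3 CPM in L345 libraries (median 7.54), and its log2 fold change was -0.23 ± 0.22 (edgeR adjusted p = 0.511).

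**Figure D2:**
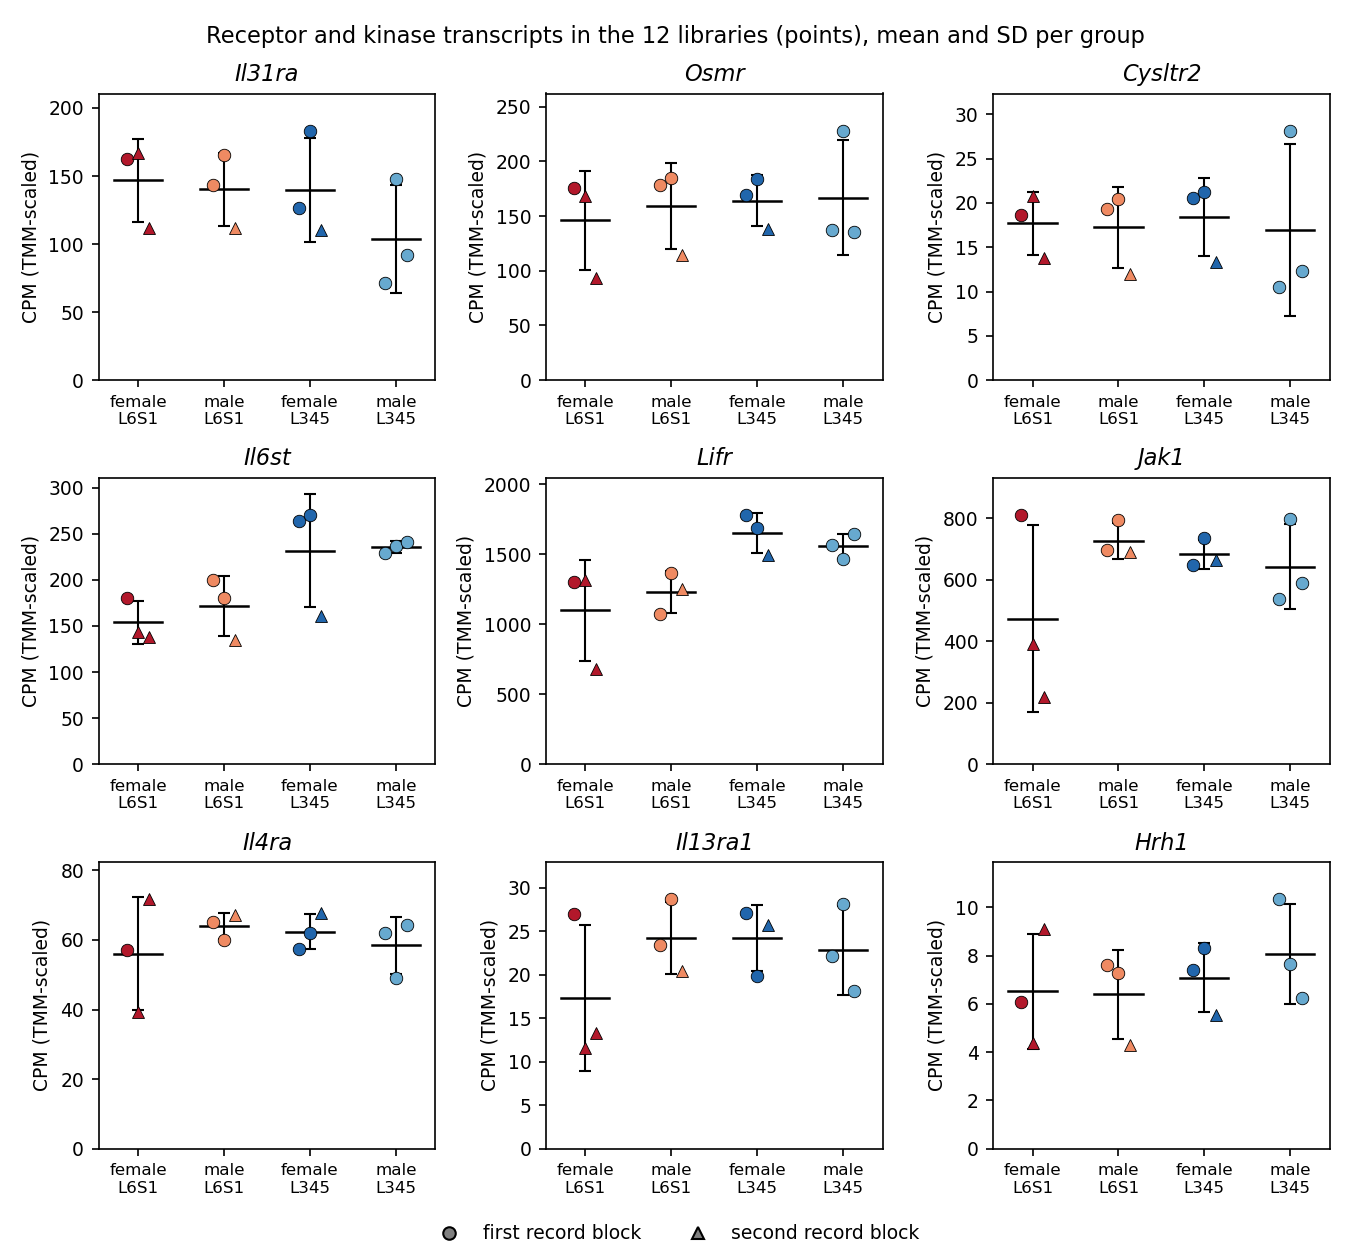
Levels of the 9 tested members in the 12 libraries (points; circles for the first record format, triangles for the second) with the mean and SD of the 3 libraries per group, in TMM-scaled CPM. All 6 L6S1 values of Lifr lie at or below 1365 CPM and all 6 L345 values at or above 1463 CPM, while Jak1 is low in female L6S1 B and C, at 391 and 219 CPM.

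The level effect was also estimated within each sex. In females 0 of 9 members passed the edgeR test, where 0.36% of genes did, and in males 0 of 9 passed, where 0.222% of genes did. At an unadjusted p under 0.05 were 2 members in females (Il6st and Lifr), where 24% of all genes were, and 1 in males (Il6st), where 8.83% were. DESeq2 called 0 members in either sex, where it called 4.91% of all genes in females and 0.713% in males. The limma-voom fit called 0 members in females, where it called 0.34% of all genes, and 2 in males (Il31ra and Lifr), where it called 12.2%.

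Il6st and Lifr had negative values in both sexes. The log2 fold change of Il6st was -0.59 ± 0.21 in females (edgeR adjusted p = 0.145) and -0.46 ± 0.21 in males (edgeR adjusted p = 0.558), and the difference between these was -0.13 with a 95% interval of -0.76 to 0.50. Lifr had -0.59 ± 0.21 in females (edgeR adjusted p = 0.147) and -0.34 ± 0.21 in males (edgeR adjusted p = 0.615). Jak1 had -0.53 ± 0.33 in females and 0.18 ± 0.33 in males, which differ in sign.

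The difference of the level effects between the sexes was tested itself, and 0 of 9 members passed, where 0% of all genes did (713 genes, 4.67%, at an unadjusted p under 0.05, none of them a member; DESeq2 and limma-voom each called 0 members and 0.0131% of all genes). The largest member value was that of Jak1, -0.71 ± 0.47 on the log2 scale (edgeR adjusted p = 0.871; 95% interval -1.72 to 0.31). Without female L6S1 A it was -1.34 (edgeR adjusted p = 0.0182), and 5.21% of all genes passed. In that fit 4 of 9 members passed in females (Jak1 at -1.16, Il13ra1 at -0.96, Lifr at -0.73 and Il6st at -0.72), where 24.5% of all genes did. Between female and male libraries with both levels weighted equally, 0 of 9 members passed, where 0.0589% of genes did, and none had an unadjusted p under 0.05, where 5.96% of genes did. DESeq2 and limma-voom called 0 members, where they called 0.203% and 0.0654% of genes. Without female L6S1 A, Jak1 passed (log2 fold change -0.58; edgeR adjusted p = 0.0346), as did 6.32% of genes. Il31ra averaged 143 ± 31.3 CPM in females and 122 ± 36.2 CPM in males (SD, n = 6 each; log2 fold change 0.25 ± 0.19; edgeR adjusted p = 0.809).

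**Figure D3:**
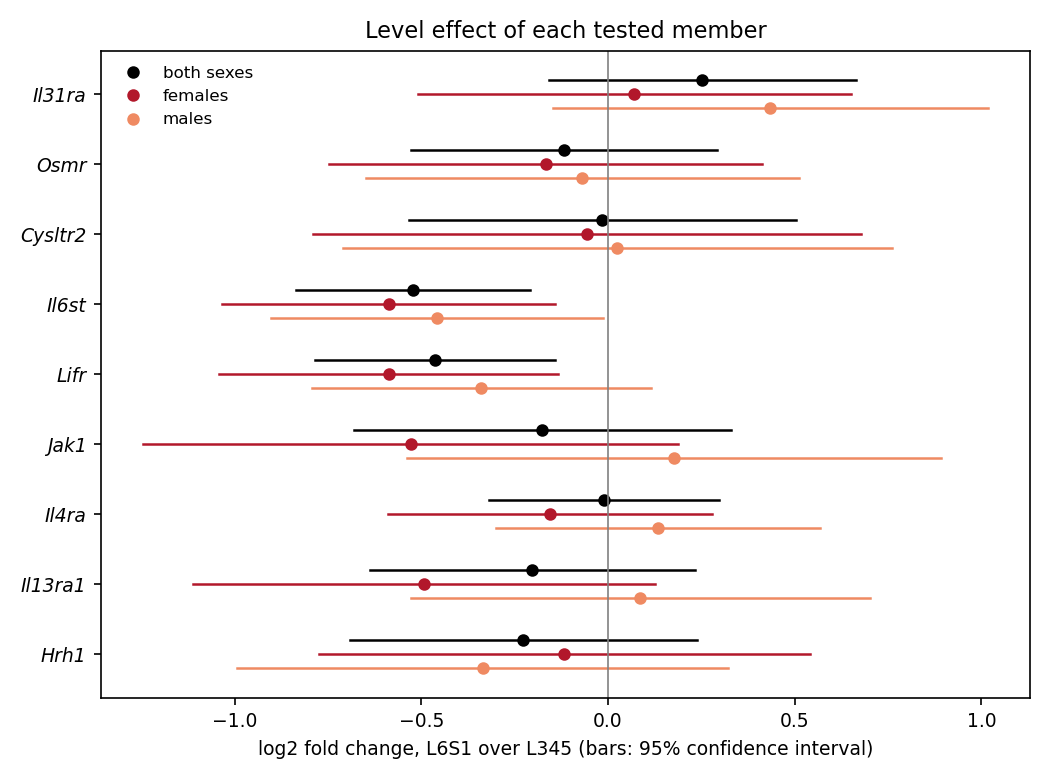
Log2 fold change of L6S1 over L345 for the 9 tested members (points) with 95% confidence intervals (bars), for both sexes, females and males. The pooled intervals of Il6st (-0.84 to -0.21) and Lifr (-0.78 to -0.14) lie below 0 before adjustment for the number of genes, and those of the other 7 members cross it.

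Cysltr2 varied with Il31ra and with Osmr from library to library. Over the 12 libraries and on the log2 CPM scale, Il31ra and Cysltr2 had Pearson's r = 0.844 (permutation p = 0.00064; adjusted p = 0.0153 over 36 member pairs) and Spearman's rho = 0.818 (permutation p = 0.00178; adjusted p = 0.0482). Without the 2 libraries farthest from the median of Il31ra, r was 0.738, and within the 8 libraries of the first record format it was 0.848. It was 0.945 within L6S1 and 0.872 within L345 (6 libraries each).

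Osmr and Cysltr2 had r = 0.830 (permutation p = 0.00085; adjusted p = 0.0153) and rho = 0.776 (permutation p = 0.00486; adjusted p = 0.0482), with r = 0.949 without the 2 farthest libraries and 0.962 within the first record format. Il31ra and Osmr had r = 0.626 (permutation p = 0.0286; adjusted p = 0.166) and rho = 0.706 (permutation p = 0.013; adjusted p = 0.0799), which failed the correction. The second record format holds 4 libraries, too few for a value of its own. The shared lows were male L345 A and C, female L345 D, female L6S1 C and male L6S1 C, where Cysltr2 was at 10.5 to 13.8 CPM, against 18.6 to 28.1 CPM in the other 7 libraries.

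Il13ra1 and Jak1 had r = 0.818 (permutation p = 0.00296; adjusted p = 0.0355) and rho = 0.706 (permutation p = 0.0133; adjusted p = 0.0799). Without female L6S1 B and C, which are also the 2 farthest libraries, r was 0.554, and within the first record format it was 0.608. Il6st and Lifr had r = 0.678 (adjusted permutation p = 0.0555) and rho = 0.783 (adjusted permutation p = 0.0482). Both genes were lower on average in L6S1, and for deviations from the group means their r was 0.302. It was 0.313 within L6S1 and 0.651 within L345. Il31ra and Il4ra had a negative r of -0.456 (permutation p = 0.134; adjusted p = 0.309) and rho of -0.552 (adjusted permutation p = 0.239).

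Of 11665 tested genes averaging 2 CPM or more, the 5 whose deviations from the group means were most like those of Il31ra over the 12 libraries were Npy2r (r = 0.973), Wdhd1 (0.935), Cysltr2 (0.919), Plag1 (0.909) and Pla2r1 (0.901). Npy2r encodes a neuropeptide Y receptor and averaged 95.6 ± 28.7 CPM (SD, n = 12). Osmr ranked 7 in that order. The listed genes of the same neurons spread over the whole order. Htr1f ranked 93 (r = 0.787), Trpa1 251 (0.730), Nppb 476 (0.686), Nts 937 (0.626), Sst 1287 (0.587) and Ptafr 3832 (0.260), while Plcb3 ranked 8378 (r = -0.33) and Trpv1 10700 (r = -0.61), and Npr1 averaged under 2 CPM. Of the genes of the Mrgpra3 itch neurons, another class, Mrgprb4 ranked 1695 (r = 0.544), Mrgprb5 3085 (0.373), Mrgprx1 4436 (0.166) and Mrgpra3 6187 (r = -0.07).

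The 5 genes most like Cysltr2 were Lrrtm3 (r = 0.962), Npy2r (0.952), Flrt3 (0.945), Slc25a53 (0.943) and Zfp65 (0.943), and Il31ra ranked 8 and Osmr 14. In each of these pairs both values come from the same 12 libraries, and the values carry no test.

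**Figure D4:**
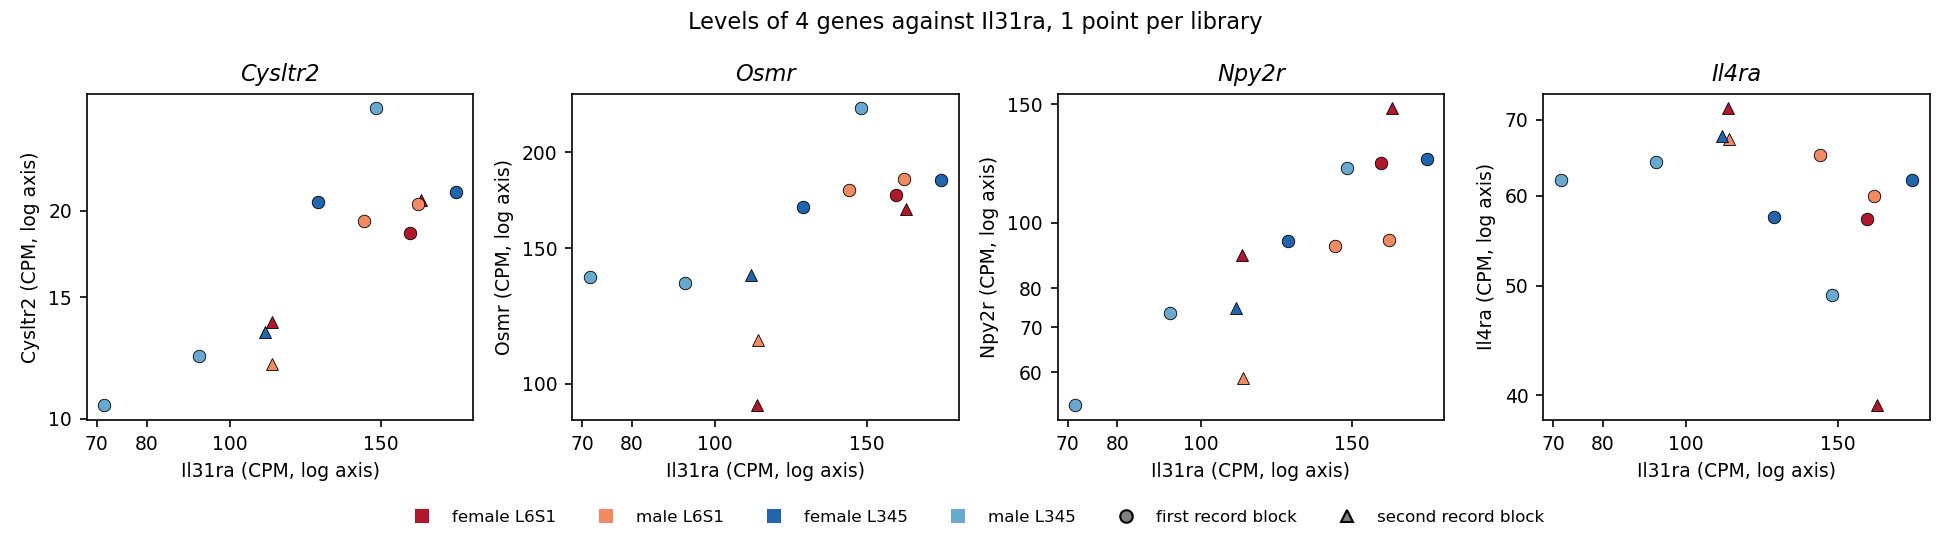
Levels of Cysltr2, Osmr, Npy2r and Il4ra against Il31ra, 1 point per library coloured by group, in CPM on logarithmic axes. Cysltr2 (r = 0.844), Osmr (r = 0.626) and Npy2r are high where Il31ra is high, and Il4ra has a negative r of -0.456.

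The partners of the members were read from gene lists. In the first 6 lists, on receptors, ligands, kinases, inhibitors and mediators, 47 genes were tested and 1 passed, where 2.33% of all genes did. Their median log2 fold change was -0.25 against -0.06 over all genes. The unadjusted counts below stand beside 26.6% of all genes with an unadjusted edgeR p under 0.05. DESeq2 called 4 of the 47 and limma-voom 10, where they called 9.94% and 21.4% of all genes.

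Related type I cytokine receptors had 7 tested genes of 15 listed and 0 calls (2 with an unadjusted p under 0.05). The highest by mean level was Ghr, the growth hormone receptor, at 27.0 ± 7.77 CPM in L6S1 and 37.4 ± 8.88 CPM in L345 (SD, n = 6 each; edgeR adjusted p = 0.176). Prlr, the prolactin receptor, chosen after its values were seen, was at 8.86 ± 3.13 CPM in L6S1 and 5.47 ± 1.26 CPM in L345 (log2 fold change 0.70 ± 0.23; edgeR adjusted p = 0.0948), and DESeq2 and limma-voom called it with adjusted p-values of 0.0324 and 0.0327.

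Ligands had 3 tested genes of 13 listed and 0 calls (0 at an unadjusted p under 0.05), the highest being Il4 at 4.22 ± 0.888 CPM in L6S1 and 5.00 ± 0.529 CPM in L345. Other type 2 and alarmin receptors had 7 of 12 tested and 0 calls (0 at an unadjusted p under 0.05), with Il10rb, a chain of the interleukin-10 receptor, at 89.8 ± 14.5 CPM in L6S1 and 96.4 ± 3.10 CPM in L345.

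JAK and STAT genes other than Jak1 had 8 of 10 tested and 0 calls (2 at an unadjusted p under 0.05), and 7 of 8 had negative log2 fold changes. Stat3, the factor activated downstream of gp130, was the highest, at 329 ± 80.9 CPM in L6S1 and 424 ± 43.7 CPM in L345 (log2 fold change -0.39 ± 0.14; edgeR adjusted p = 0.116). Inhibitors of the pathway, among them the Socs and Pias genes, had 16 of 16 tested and 0 calls. At an unadjusted p under 0.05 were 6 of them, where 26.6% of all genes were. The highest was Pias1 at 142 ± 26.7 CPM in L6S1 and 136 ± 6.71 CPM in L345.

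Histamine and leukotriene genes had 6 of 12 tested and 1 call. Alox5ap, which presents arachidonic acid to 5-lipoxygenase in leukotriene synthesis, rose in L6S1: it had 1.18 to 3.04 CPM in L6S1 libraries and 0.664 to 0.849 CPM in L345 libraries, with no overlap. Its means were 1.99 ± 0.713 CPM in L6S1 and 0.77 ± 0.079 CPM in L345 (SD, n = 6 each; log2 fold change 1.33 ± 0.23; edgeR adjusted p = 0.00927). The macrophage, T cell and fibroblast marker sums were also higher in all 6 L6S1 libraries than in any L345 library, and their part in this result was not tested. Without female L6S1 B and C the log2 fold change was 1.04 (adjusted p = 0.0899), and within the first record format it was 1.01 (adjusted p = 0.08).

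Genes of the itch neurons with Nppb and Sst had 9 of 9 tested and 1 call (3 at an unadjusted p under 0.05, where 26.6% of all genes were). The call was Trpv1, the capsaicin-gated channel, which rose in L6S1 to 779 ± 81.9 CPM against 543 ± 90.6 CPM in L345 (log2 fold change 0.52 ± 0.12; edgeR adjusted p = 0.0424; higher than the L345 mean of its sex in 6 of 6 libraries). With 1 library left out at a time it passed in 3 of 12 fits, at log2 fold changes of 0.46 to 0.59. Many other sensory neurons also make Trpv1. Nppb was at 117 ± 46.6 CPM in L6S1 and 73.5 ± 32.4 CPM in L345 (edgeR adjusted p = 0.173). Plcb3, a phospholipase C, was at 113 ± 35.3 CPM in L6S1 and 173 ± 23.5 CPM in L345 (log2 fold change -0.64; edgeR adjusted p = 0.0743; below the L345 mean of its sex in 6 of 6 libraries), and Sst was at 37.1 ± 12.3 CPM in L6S1 and 39.9 ± 16.7 CPM in L345 (edgeR adjusted p = 0.762). The 4 genes of the Mrgpra3 itch neurons had 0 calls (2 at an unadjusted p under 0.05), with Mrgpra3 at 117 ± 50.2 CPM in L6S1 and 73.8 ± 21.9 CPM in L345 (log2 fold change 0.67; edgeR adjusted p = 0.140). Mrgprx1 had the opposite sign, at 11.5 ± 4.12 CPM in L6S1 and 18.1 ± 4.15 CPM in L345 (log2 fold change -0.67; edgeR adjusted p = 0.0860).

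**Figure D5:**
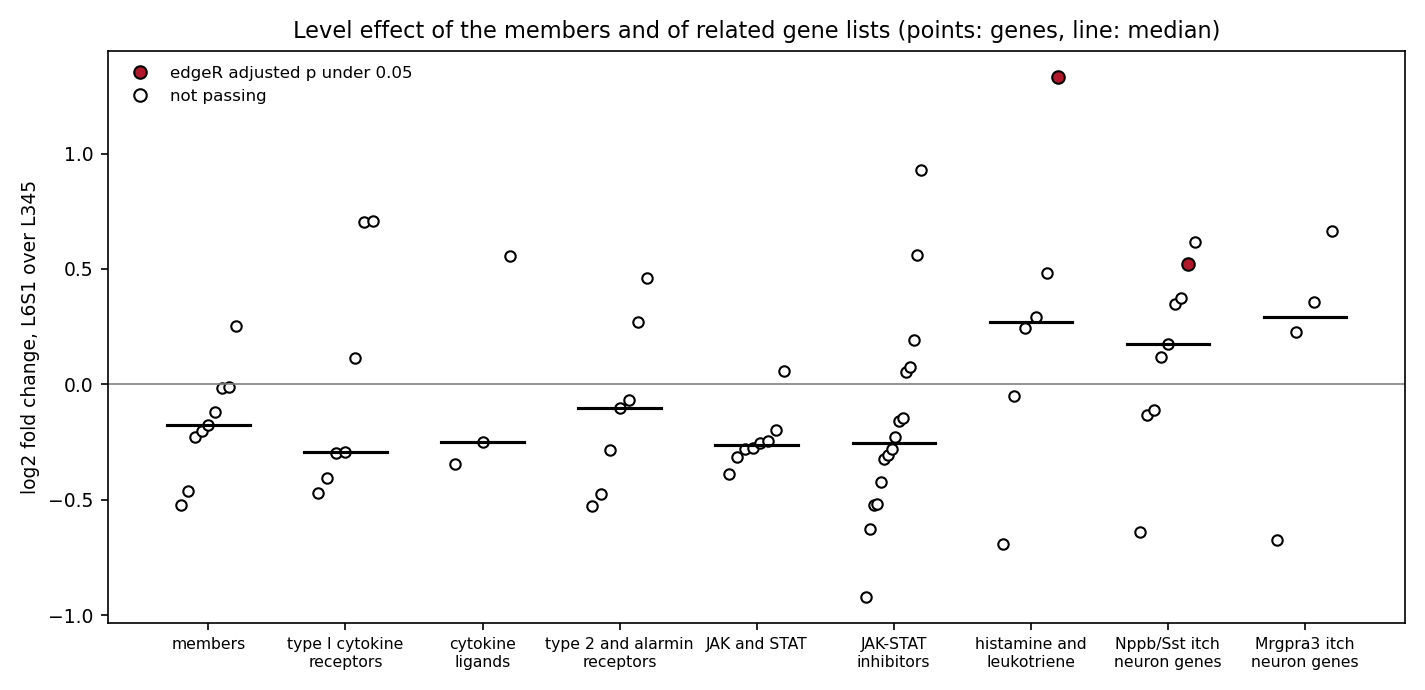
Log2 fold change of L6S1 over L345 for the 9 tested members and for the tested genes of 8 related lists (points; filled where the edgeR adjusted p is under 0.05) with the median of each list (line). The filled points are Alox5ap at 1.33 and Trpv1 at 0.52, and the median of the members is -0.18.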

How the data were processed

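The members and gene lists were chosen with earlier results of these data known. Per the submitters' processing notes, Subread and featureCounts 1.4.5 were used with build GRCm38.p2. The sources used here name neither an annotation release nor a strand setting. The authors deposited counts, CPM and RPKM per gene for each library. The deposited CPM is the count scaled to the table's total and the deposited RPKM is that CPM per kilobase, recomputed in all 12 tables; only counts were tested.

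GENCODE M21 gave symbols for 40254 genes (97.3%). Genes kept by filterByExpr (15281) were fitted with edgeR 4.0.16 in R 4.3.3: TMM scaling, 1 mean for each of the 4 groups (8 residual degrees of freedom), quasi-likelihood F-tests and Benjamini-Hochberg adjustment at 0.05 over all genes. The common biological coefficient of variation was 0.239. Il6ra failed the filter. CPM values are TMM-scaled except depth floors; RPKM uses table totals. Correlations used log2 CPM and 100000 permutations. Promoters came from RefSeq on GRCm38.p6 and matched all 10 members. The code was tested on simulated data.

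Named were all members, the called genes of each list (at most 4) or else its highest by mean CPM, and 5 genes most like Il31ra and Cysltr2. The other genes of the 2 itch neuron lists, the sensory neuron markers and Prlr fall outside this rule, and those named were chosen after their values were seen. Libraries are pools, and whether they are separate animals throughout is not stated, so p-values measure the spread between these libraries. Floors cover counting error only. By M21 exons, Il4ra shares 571 bases with Gm44876, Il6ra 242 with Gm42809 and Jak1 4 with Raver2, each on the opposite strand. Il31ra shares 45 with Gm3226 on the same strand. Of these overlapping genes only Raver2 has deposited counts, and the part of the overlaps in the members' counts was not tested. Alternatives were DESeq2 1.42.0, limma-voom (limma 3.58.1), other scalings (RLE, upper quartile), other filters, record format, a replicate block, GC and length offsets, a glial covariate and left-out libraries.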

Additional observations from a re-analysis of the deposited data

How the results depend on the processing

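The L6S1 against L345 effects of Il31ra, Il6st, Lifr and Hrh1 had one direction in all 24 alternatives; Il6st passed the threshold in 7, Lifr in 4, and Il31ra and Hrh1 in 0. Counts of calls depended on the setting, and the cause was not tested. For L6S1 against L345, 545 genes were called with upper-quartile scaling, 1519 with DESeq2, 3268 with limma-voom, 841 without a filter, 125 with a record format term, 55 with the glial covariate and 137 without female L6S1 B and C, against 356 as reported. Pathway genes called were 2, 4, 10 and 4 in the first 4 of these, 4 with GC and length offsets and 0 with the glial covariate, against 1. Members called were 1 with DESeq2 and in the first record format alone (Il6st), and 2 with limma-voom and without a filter (Il6st and Lifr), against 0. With GC and length offsets Il13ra1 was the 1 member called in females and the 1 called for the difference between the sexes. The shares of all genes called in those contrasts with these offsets are not given here, so these calls are not read as a result about Il13ra1. In males limma-voom called 2 members, where it called 12.2% of all genes.

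Replicate letters were not used to pair the libraries in the main fit. Same-letter correlations of deviations from group means were 0.05, 0.08 and 0.09 in males and 0.23 and 0.02 in females. The highest female value, 0.24, was between different letters, L6S1 C and L345 D. In males each library correlated best with its own letter, a hint from the data only; in females this failed for C. With a replicate block, 5335 of 15281 genes, 14 pathway genes and 4 members (Il6st, Lifr, Il13ra1 and Jak1) were called for L6S1 against L345. The same fit called 4 members in females and 2 for the difference between the sexes. The shares of all genes in those contrasts are not given here, so the counts are not read as a result about the members. Female L6S1 A and female L345 D have no partner in that block and add nothing to the level effects. Whether pairing or their loss raised the counts was not tested. The sex contrast could not be fitted with that block.

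Leaving out 1 library at a time gave 80 to 4031 genes, 1 to 10 pathway genes and 0 to 3 members called for L6S1 against L345, 0 to 4 members in females, and 0 to 1 for sex and for the difference between the sexes. The 4031 genes and 3 members (Il6st, Lifr and Jak1) came without female L6S1 A, and Il6st also passed without female L345 D.

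No reversed value passed the threshold, but some were as large as the reported effect or larger. Jak1 was at -0.18 as reported and at 0.21 in the settings named below, and Cysltr2 was at -0.02 as reported. Log2 fold changes with 1 library left out ranged from -0.11 to 0.093 for Il4ra, -0.20 to 0.026 for Osmr, -0.14 to 0.27 for Cysltr2, -0.49 to 0.0035 for Jak1 and -0.061 to 0.17 for Pias1. Cysltr2 turned positive with RLE (0.013), upper-quartile scaling (0.054), DESeq2 (0.012), limma-voom (0.19), the record format term (0.15), the first format alone (0.022), the glial covariate (0.18) and without female L6S1 B and C (0.013). Il4ra did with RLE (0.016), upper quartile (0.057), DESeq2 (0.016), the first format alone (0.0057) and GC and length offsets (0.25). Osmr did with the format term (0.024), the first format alone (0.046), the glial covariate (0.047) and without female L6S1 B and C (0.0087). Jak1 was at 0.21 in the first format alone and without female L6S1 B and C, and at 0.13 given the glial covariate. In females it was at 0.20 and 0.24 in the first 2 of these, and its difference between the sexes was 0.067 without female L6S1 B and C. In both of these settings the female L6S1 group is female A alone, the library with the highest Jak1 level (811 CPM). Il13ra1 was at 0.18 and 0.11, and Il10rb at 0.047 and 0.059, in the first format alone and without female L6S1 B and C; Il10rb was at 0.023 with the glial covariate. Mean RPKM moved by more than 1 SD with M21 exon lengths for Il31ra (23.4), Il4ra (10.0) and Cysltr2 (6.12). Il6ra stayed below 3 counts in every library, counted over 3343 bases where M21 exons have 8642. The part of depth and of the uncounted bases in this was not tested.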
